A study of Mus musculus with 14 samples.

Results

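The genes described here are the cyclins, the cyclin-dependent kinases (CDKs), their inhibitors and the factors that control them. Members were the rows of the deposited expression table whose gene symbol is on a list of 46 cell cycle regulators, read across all 14 libraries. The table held 45 of the 46 symbols, out of 22915 symbols in all. The missing symbol, Cdc2a, is an older name of Cdk1, which was found under its present name. Cdkn2d stands in 2 rows, and the second of these, on chromosome 9 from 123836860 to 123839607 (mm9), did not exceed 0.0992 FPKM and was not tested. FPKM is a count of fragments divided by the length of the transcript and by the size of the library.

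A cell enters the cycle when D-type cyclins pair with CDK4 or CDK6 and phosphorylate the retinoblastoma family (the pocket proteins), which frees E2F transcription factors to switch on S-phase genes. Cyclin E and cyclin A with CDK2 then carry the cell through DNA replication, and cyclin B with CDK1 drives mitosis, while INK4 and CIP/KIP inhibitors hold the kinases back. Mouse embryonic stem cells (ESCs) are known for a short G1 phase and for weak control by the pocket proteins, and this control is built up as cells differentiate.

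The study took 4 mouse lines through 3 stages of a change from ESCs to extraembryonic endoderm (XEN) cells, the stem cells of the yolk sac lineage, and asked whether Zfp281, a zinc finger transcription factor, stands in the way of it. The lines were 3WT (wild type), 3.34Null and 2.6Null (both Zfp281KO) and 3.34Null-Rescue (the 3.34Null line with Zfp281 put back), all of strain 129S1/SVImJ. The cell line field of the labels numbers the 2.6Null line differently from its title, and the title is used. At the ESC stage the cells grew without feeders on gelatin in serum with leukemia inhibitory factor. The cXENp1 stage followed 48 h in XEN medium with 0.01 µM all-trans retinoic acid and 10 ng/mL activin A, and the cXENp3 stage followed a passage on iMEF fibroblast feeders and a return to gelatin. XENB1 (strain 129S1) and XEN5 (strain 129S1/SVImJ) are wild-type XEN lines, kept without feeders in medium conditioned by fibroblasts. Each line gave 1 library per stage, so lines stand in for replicates: 2 KO lines were compared with the 2 lines that have Zfp281, called Zfp281-present here. The 3WT line is a single line, and the rescue line derives from a knockout line it is compared with, so the 4 lines are not independent clones. In bulk RNA, fewer cells of a type and less RNA per cell cannot be told apart.

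Zfp281 itself was at 0 to 3.96 FPKM in the KO libraries and at 25.1 to 38.6 FPKM in the Zfp281-present libraries. The summed level of 8 ESC markers was 6142 to 8911 FPKM at the ESC stage, and at cXENp3 it was 307 and 953 FPKM in the KO lines against 3356 and 6193 FPKM in the Zfp281-present lines. The summed level of 8 XEN markers at cXENp3 was 5.25 and 13.5 FPKM in the Zfp281-present lines against 944 and 1156 FPKM in both KO lines, beside 1031 and 1342 FPKM in the XEN lines. The 10 markers of feeder fibroblasts summed to 34.9 FPKM at cXENp3 in 3WT (4 of the 10 above 1 FPKM, with Lum at 0), 1284 in 3.34Null-Rescue, 298 in 3.34Null and 388 in 2.6Null, to 566 and 656 FPKM in the XEN lines, and to 17.0 FPKM at most at the ESC stage. In the labels' descriptions the ESC libraries of 3WT, 3.34Null and 3.34Null-Rescue have codes that begin with JH, and the other 11 have codes that begin with XH, so this prefix and the ESC stage coincide in every line but 2.6Null. The ESC library of 2.6Null stood apart from the other 3 in several members, and for it the clone and the prefix cannot be told apart. In this library all 8 XEN markers were above 1 FPKM and summed to 48.4 FPKM, beside 1.20 to 5.98 FPKM in the other ESC libraries. At cXENp1 the XEN markers summed to 385 FPKM in 2.6Null and to 37.0 to 49.4 FPKM in the other lines.

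Of the 45 members, 44 had at least 1 FPKM in at least 2 libraries of a fit and were tested. Ccna1, the germ cell cyclin A, did not exceed 1.26 FPKM and was not. A gene was called where limma's Benjamini-Hochberg adjusted p over all tested genes was under 0.05. In the XEN lines against ESCs, 15 of the 44 members (34.1%) were called, 5 higher and 10 lower, where 41.9% of all tested genes were called (22.2% higher and 19.7% lower). At cXENp1 against ESC, 17 members (38.6%) were called, 7 higher and 10 lower, against 28.5% of all genes (14.7% higher and 13.8% lower). In the KO lines, cXENp3 against ESC called 20 members (45.5%), 8 higher and 12 lower, against 47.8% of all genes (25.5% higher and 22.3% lower). In the Zfp281-present lines the same step called 1 member, Ccnd2, which was higher, against 1.3% of all genes (0.561% higher and 0.735% lower). The KO lines against the Zfp281-present lines gave 0 called members by limma at the ESC stage, with 6 at an unadjusted p under 0.05 and 1.97% of all genes called (1.05% higher and 0.917% lower). The same comparison gave 0 by limma at cXENp1, with 1 at an unadjusted p under 0.05 and 0.485% of all genes called (0.364% higher and 0.121% lower). At cXENp3 it called 15 members (34.1%), 5 higher and 10 lower, against 41.9% of all genes (22.9% higher and 19% lower). The members' shares were therefore near or below those of all genes, apart from cXENp1 against ESC, where they were above.

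Over the comparisons, 34 members were called at least once. Ccnd2 was called in 5 comparisons, and Ccnb1, Ccnb2, Cdk6 and E2f6 in 4 each. The 10 tested members called in no comparison were Cdc25a, Cdc25b, Cdk1, Cdk4, Cdkn2d, E2f3, E2f7, Mdm2, Mki67 and Rb1. The median log2 difference over the members was 0.04 in XEN against ESC, beside -0.02 over all genes. It was -0.36 at cXENp1 against ESC (all genes 0.00), -0.40 in the KO lines at cXENp3 against ESC (all genes -0.00) and -0.48 at cXENp3 between KO and Zfp281-present lines (all genes 0.01). All differences are on the log2(FPKM + 1) scale, which understates changes of low values.

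**Figure D1:**
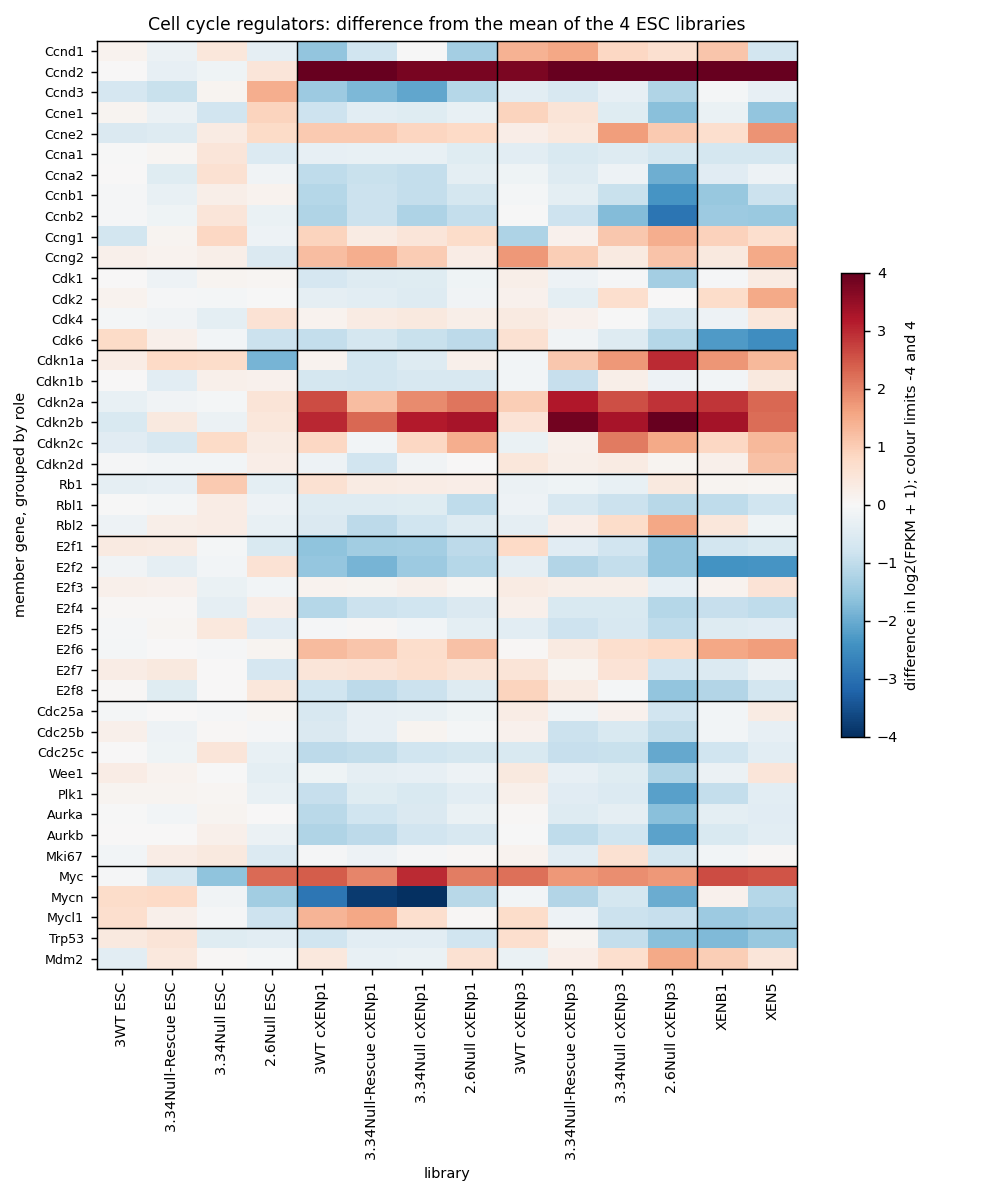
Difference of each member from the mean of the 4 ESC libraries on the log2(FPKM + 1) scale, in colour, with 1 column per library and members grouped by role. Ccnd2, Cdkn2a and Cdkn2b are above the ESC mean in every cXENp1, cXENp3 and XEN library, and the colour scale ends at -4 and 4, so that larger differences, as in Ccnd2, take the end colours.

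Of the D-type cyclins, Ccnd2 rose after the ESC stage, and Ccnd3 kept the largest share of their FPKM in every later library but that of 2.6Null at cXENp3. Ccnd2, on chromosome 6 from 127075727 to 127162437 (mm9), was at 0.485 FPKM in 3WT, 0.156 in 3.34Null-Rescue, 0.304 in 3.34Null and 1.02 in 2.6Null ESCs. At cXENp1 it was at 49.1, 23.8, 19.3 and 19.4 FPKM in the same order of lines, and at cXENp3 at 19.0, 61.5, 66.5 and 264 FPKM. The XEN lines had 102 (XENB1) and 70.0 FPKM (XEN5). No library of a later stage or of a XEN line overlapped with the ESC libraries. By limma, Ccnd2 rose by 4.20 on the log2 scale (SE 0.61, adjusted p 0.00174) at cXENp1 and was 5.87 higher (SE 0.32, adjusted p 1.73e-05) in XEN lines than in ESCs, and both calls were kept without each line in turn. From ESC to cXENp3 it rose by 6.36 (SE 0.66, adjusted p 0.000146) in the KO lines and by 4.75 (SE 0.66, adjusted p 0.0158) in the Zfp281-present lines. The latter difference was 3.75 (adjusted p 0.946) without 3.34Null-Rescue. At cXENp3 the KO lines were 1.92 higher than the Zfp281-present lines (adjusted p 0.0409), a call that 5 of 9 alternative fits lost. With the library prefix as a term, which leaves 2.6Null alone to compare the cXENp1 and ESC stages within a prefix, the cXENp1 difference was 4.50 and did not pass.

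Ccnd3, the cyclin D that made up most of the D-type cyclin FPKM in ESCs, was at 128 FPKM in 3WT, 111 in 3.34Null-Rescue, 221 in 3.34Null and 560 in 2.6Null ESCs. At cXENp1 it was at 74.2, 58.3, 47.6 and 91.9 FPKM, below every ESC library, a fall by 1.62 on the log2 scale (SE 0.44, adjusted p 0.0232). The call at cXENp1 was lost in 3 of 10 alternative fits, among them that with each library scaled to the same sum. In the KO lines Ccnd3 was at 164 (3.34Null) and 87.9 FPKM (2.6Null) at cXENp3, which was 1.54 lower than in KO ESCs (SE 0.45, adjusted p 0.0188). The level at cXENp3 was 152 FPKM in 3WT and 131 in 3.34Null-Rescue, where both ESC libraries were lower. Ccnd1, the D-type cyclin best known as a growth factor target, was at 15.7 to 28.4 FPKM in ESCs and at 6.15, 11.4, 20.1 and 7.37 FPKM at cXENp1 in 3WT, 3.34Null-Rescue, 3.34Null and 2.6Null. It fell in each line, by 0.94 in all (SE 0.31, adjusted p 0.0485), although the level of 3.34Null at cXENp1 lay within the range of the ESC libraries. Of 10 alternative fits 1, with a pseudocount of 0.1, kept this call, and in the other 9 the adjusted p went up to 0.257. At cXENp3 Ccnd1 was at 32.4 to 61.6 FPKM, above all ESC libraries, and this change was not called in KO or Zfp281-present lines.

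Expressed as shares of the summed FPKM of the 3 D-type cyclins, Ccnd3 made up 84.7% to 97.1% in ESCs and Ccnd2 0.122% to 0.322%. Ccnd2 rose to 16.3% to 37.9% at cXENp1 and made up 8.38% to 68.7% at cXENp3, with 3WT lowest and 2.6Null highest. In the XEN lines it made up 28.6% and 29.9%. Ccnd3 made up 54.7% to 77.4% at cXENp1, 22.9% to 67.2% at cXENp3 and 56.7% and 66.6% in the XEN lines. Ccnd2 exceeded Ccnd3 in 1 library, 2.6Null at cXENp3, and in all others it was at 0.662 times the Ccnd3 FPKM or less. These shares are descriptions of FPKM, which is scaled to length, and were not tested. The summed feeder fibroblast markers were higher at cXENp3 than in ESCs, and also in the XEN lines, which were kept without feeders. The part of feeder RNA in the Ccnd2 level at cXENp3 was not tested. At cXENp1, before the feeder passage, the same markers summed to 14.8 to 71.1 FPKM.

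**Figure D2:**
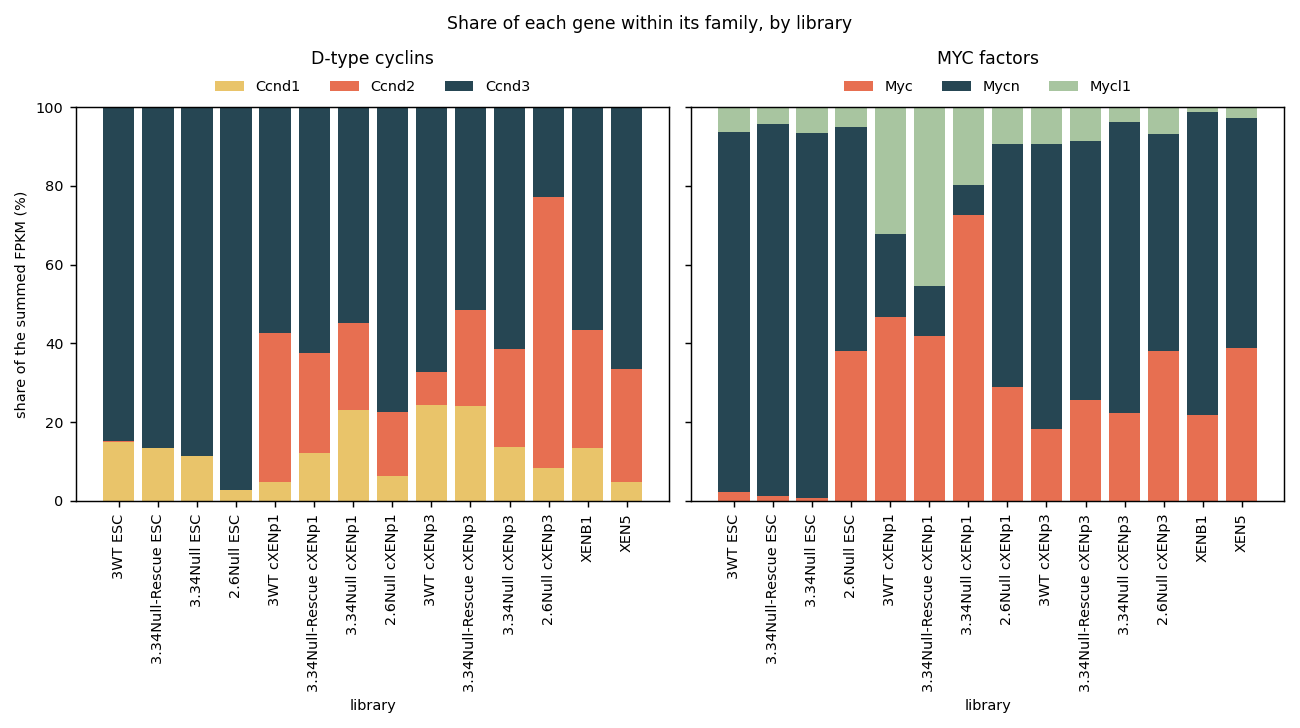
Share of the summed FPKM of each family (percent) taken by each D-type cyclin (left) and each MYC factor (right), with 1 bar per library. Ccnd3 takes 84.7% to 97.1% of the D-type cyclin FPKM in the 4 ESC libraries and Ccnd2 28.6% and 29.9% in the XEN lines, and Mycn takes 57.0% to 94.4% of the MYC FPKM in ESCs.

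From ESC to cXENp3 the E-type cyclins, which activate CDK2 at the start of S phase, rose in every line, apart from Ccne1 in 2.6Null (-2.57). At cXENp3 they differed in opposite directions between KO and Zfp281-present lines. Ccne1 was at 108 FPKM in 3WT and 82.9 in 3.34Null-Rescue against 40.2 in 3.34Null and 17.2 in 2.6Null, and the KO lines were 1.80 lower (SE 0.50, adjusted p 0.0174). Ccne2 was at 4.22 and 4.75 FPKM in the Zfp281-present lines against 12.6 and 7.98 in 3.34Null and 2.6Null, and the KO lines were 1.01 higher (SE 0.26, adjusted p 0.0116). Ccne2 was also called higher in the KO lines at cXENp3 than at ESC, by 0.80 (SE 0.26, adjusted p 0.0273). This Ccne2 call was lost in 5 of 10 alternative fits. For both genes the 2 groups did not overlap at cXENp3. At the ESC stage 2.6Null had the highest level of both, with 107 FPKM for Ccne1 and 6.36 for Ccne2. Ccna2, the cyclin A of S phase and G2, fell from 199 to 114 FPKM in 3.34Null and from 119 to 33.3 in 2.6Null between ESC and cXENp3, by 1.30 on the log2 scale (SE 0.48, adjusted p 0.0483). This call was lost in 7 of 10 alternative fits, with adjusted p up to 0.228. The Zfp281-present lines had 132 and 92.8 FPKM at ESC and 116 and 91.8 at cXENp3 for Ccna2, which was not called there.

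Cyclin G1 and cyclin G2 are atypical cyclins, and Ccng1 is a known target of p53. Ccng1 was at 40.3 FPKM in 3WT, 110 in 3.34Null-Rescue, 206 in 3.34Null and 266 in 2.6Null at cXENp3. The KO lines were higher by 1.79 (SE 0.49, adjusted p 0.016), without overlap. Ccng2 was at 4.41 to 8.51 FPKM in ESCs and at 9.0 to 21.1 at cXENp1, with no overlap, and was called higher there by 1.00 (SE 0.28, adjusted p 0.0285).

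The B-type cyclins and the mitotic kinases Plk1, Aurka and Aurkb were called lower in the KO lines at cXENp3 than at ESC, and for Ccnb1 and Ccnb2 the difference from the step in the Zfp281-present lines was itself called. Genes of this class are known to be held in check through CHR elements (TTTGAA) and to be switched on through CCAAT boxes (CCAAT) near their start sites. The promoters of 4 of them with a RefSeq entry (build GRCm38.p6) are shown because these 4 genes were all called lower in that step of the KO lines. Each run is the 150 bases just before the start site that RefSeq gives, 5′ to 3′ on the gene's strand, with CCAAT in either orientation in capitals where it was found.
Ccnb1: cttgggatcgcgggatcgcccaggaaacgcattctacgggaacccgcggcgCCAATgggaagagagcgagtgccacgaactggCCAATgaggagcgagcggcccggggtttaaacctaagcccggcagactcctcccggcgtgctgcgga
Ccnb2: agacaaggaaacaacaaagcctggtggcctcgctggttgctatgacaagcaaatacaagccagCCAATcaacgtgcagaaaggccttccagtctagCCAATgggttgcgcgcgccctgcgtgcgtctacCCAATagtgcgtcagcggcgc
Plk1: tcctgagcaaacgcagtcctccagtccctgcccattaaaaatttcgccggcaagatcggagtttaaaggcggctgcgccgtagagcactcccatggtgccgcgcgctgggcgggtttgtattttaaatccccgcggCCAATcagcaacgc
Aurka: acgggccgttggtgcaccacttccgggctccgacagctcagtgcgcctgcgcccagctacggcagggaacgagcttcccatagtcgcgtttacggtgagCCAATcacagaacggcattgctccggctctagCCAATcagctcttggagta
These lie at chr13:100786487-100786636 (minus strand), chr9:70421555-70421704 (minus), chr7:122159285-122159434 (plus) and chr2:172370571-172370720 (minus), and hold 2, 3, 1 and 2 CCAAT matches. A CHR match lay just after the start site in 3 of the 4, shown as 20 bases with TTTGAA in capitals.
Ccnb2: cgcggtaTTTGAAtcgcgga
Plk1: cgccgcgTTTGAAttcgggg
Aurka: gagaaccTTTGAAttgtaac
The matches began 5, 31 and 33 bases after the start, at chr9:70421538-70421557, chr7:122159458-122159477 and chr2:172370526-172370545. No CHR match was in the Ccnb1 window. Transcripts of the mouse GENCODE annotation begin inside the windows of Ccnb1, Ccnb2 and Plk1, and none was found to begin inside that of Aurka, so the Aurka start rests on RefSeq alone. Among the 34 members with a RefSeq promoter window of 250 bases before to 50 after the start, searched on both strands, 64.7% held CCAAT and 32.4% TTTGAA, beside 37.4% and 17.9% of all 32851 windows. An E2F-type match (TTTNNCGC) was in 32.4% of these members and 5.17% of all windows, and an E-box (CACGTG) in 14.7% and 7.15%. The 34 members have 40 windows between them, and the shares by window were 57.5%, 27.5%, 30% and 12.5% in the same order. A match of letters is a description and not a bound site.

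Ccnb1, on chromosome 13 from 101548694 to 101556441 (mm9), was at 229 FPKM in 3WT, 190 in 3.34Null-Rescue, 275 in 3.34Null and 258 in 2.6Null ESCs. At cXENp1 all 4 lines, Zfp281-present ones included, were between 105 and 144 FPKM, below every ESC library but without a call. The same held at cXENp1 for Ccnb2 (59.6 to 77.8 FPKM), Plk1 (59.6 to 85.5), Aurka (34.7 to 62.1) and Aurkb (27.4 to 40.8). Of all tested genes 39.4% did not overlap between these stages, beside 52.3% of the members. The fit of this step also held the cXENp3 libraries, where Ccnb1 and Ccnb2 differed between KO and Zfp281-present lines. That difference adds to the SE of the step, so the lack of a call does not show that Ccnb1 and Ccnb2 were unchanged at cXENp1. At cXENp3 Ccnb1 was back at 223 FPKM in 3WT and 179 in 3.34Null-Rescue, and was at 127 in 3.34Null and 44.9 in 2.6Null. The KO lines at cXENp3 thus lay below both Zfp281-present lines and below all ESC libraries. They were 1.39 lower than the Zfp281-present lines (log2 difference -1.39, SE 0.38, adjusted p 0.0167) and 1.81 lower than KO ESCs (-1.81, SE 0.38, adjusted p 0.00419). The XEN lines had 81.6 (XENB1) and 129 FPKM (XEN5), below every ESC library (-1.19, SE 0.25, adjusted p 0.00692).

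Ccnb2, on chromosome 9 from 70255496 to 70269361 (mm9), whose promoter has the CHR match above, was at 135, 124, 198 and 118 FPKM in ESCs of 3WT, 3.34Null-Rescue, 3.34Null and 2.6Null. The cXENp3 level was 139 and 79.2 FPKM in the Zfp281-present lines and 41.8 and 17.9 FPKM in the KO lines. The groups did not overlap, and the difference was -1.90 (SE 0.40, adjusted p 0.00512). Between ESC and cXENp3 Ccnb2 fell by 2.44 in the KO lines (SE 0.40, adjusted p 0.00118). The XEN lines had 50.8 and 49.8 FPKM, 1.47 lower than ESCs on the log2 scale (-1.47, SE 0.24, adjusted p 0.00245).

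Plk1, a kinase of mitotic entry, was at 93.4 to 124 FPKM in ESCs and at 132, 83.9, 77.8 and 24.6 FPKM at cXENp3 in 3WT, 3.34Null-Rescue, 3.34Null and 2.6Null. It was lower in KO than in Zfp281-present lines (-1.24, SE 0.44, adjusted p 0.0449), but 3.34Null and 3.34Null-Rescue were close, and 5 of 9 alternative fits lost this call (adjusted p up to 0.347). Against KO ESCs the Plk1 difference was -1.26 (SE 0.44, adjusted p 0.038), lost in 6 of 10 alternative fits. Aurka, the centrosome kinase, fell from 80.5 to 57.7 FPKM in 3.34Null and from 75.8 to 22.9 in 2.6Null between ESC and cXENp3 (-1.08, SE 0.36, adjusted p 0.0329), a call lost in 6 of 10 alternative fits (adjusted p up to 0.271). In 3WT Aurka was at 73.1 and 77.2 FPKM at these stages, and in 3.34Null-Rescue at 69.7 and 52.4. Aurkb, the kinase of the chromosomal passenger complex, fell from 74.5 to 36.9 and from 54.9 to 13.9 FPKM (-1.45, SE 0.42, adjusted p 0.0175). It was at 64.6 and 64.1 FPKM in 3WT and at 65.9 and 31.3 in 3.34Null-Rescue. Cdc25c, a phosphatase that activates CDK1, fell from 30.9 to 11.3 and from 17.5 to 4.55 FPKM (-1.55, SE 0.37, adjusted p 0.0069), beside 21.9 and 14.1 in 3WT and 19.2 and 11.0 in 3.34Null-Rescue. For Aurka, Aurkb and Cdc25c the 3.34Null level at cXENp3 lay above that of 3.34Null-Rescue, so the KO and Zfp281-present groups overlapped there. None of these 3 genes was called between KO and Zfp281-present lines at cXENp3 (adjusted p 0.106, 0.0943 and 0.152) or in the interaction (adjusted p 0.218, 0.282 and 0.246), nor was Plk1 in the latter (0.25). Their fall is therefore not shown to be particular to the KO lines. In all these genes 2.6Null was the lowest library of cXENp3. At cXENp1 against ESC, Cdc25c was also called lower (-0.89, SE 0.26, adjusted p 0.0395), and Plk1 was lower in XEN lines than in ESCs (-0.70, SE 0.23, adjusted p 0.0412), calls that 7 of 10 and 7 of 11 alternative fits lost. Wee1, the kinase that restrains CDK1, was at 37.5 and 22.5 FPKM in the Zfp281-present lines and at 19.8 and 11.9 in the KO lines (-0.88, SE 0.29, adjusted p 0.0353).

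Mki67, the proliferation antigen, did not follow the B-type cyclins. It was at 18.3, 24.1, 25.8 and 13 FPKM in ESCs and 21.7, 14.5, 30.3 and 11.7 FPKM at cXENp3 in 3WT, 3.34Null-Rescue, 3.34Null and 2.6Null. In the KO lines its difference was 0.04 (SE 0.42, adjusted p 0.943). Cdc25a and Cdc25b, phosphatases of S phase and of early mitosis, ranged over 15.6 to 34.7 and 7.70 to 18.8 FPKM and were called in no comparison.

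Among the CDKs, Cdk4, a partner of the D-type cyclins, was at 198 to 467 FPKM and was called in no comparison. Cdk6, its relative, was at 12.1 FPKM in 3WT, 7.76 in 3.34Null-Rescue, 6.12 in 3.34Null and 3.23 in 2.6Null ESCs and at 0.577 and 0.356 FPKM in the XEN lines (-2.39, SE 0.43, adjusted p 0.00351). At cXENp1 it was at 2.69 to 3.67 FPKM, 0.90 lower than in ESCs (-0.90, SE 0.28, adjusted p 0.0368). The cXENp1 levels overlapped with the 2.6Null ESC level. At cXENp3 it was at 10.6 and 5.99 FPKM in the Zfp281-present lines and 4.38 and 2.44 in the KO lines (-1.06, SE 0.37, adjusted p 0.0413). The KO lines at cXENp3 were still above the XEN lines for Cdk6 by 1.56 (SE 0.36, adjusted p 0.0367). Cdk2, the partner of cyclins E and A, was at 33.9 to 39.2 FPKM in ESCs and at 60.7 and 104 FPKM in XENB1 and XEN5, higher by 1.13 (SE 0.25, adjusted p 0.00818). Cdk1, the mitotic kinase, was at 64.6 to 80.9 FPKM in ESCs and at 71.2 and 28.4 in 3.34Null and 2.6Null at cXENp3, and its difference in the KO lines did not pass (-0.80, SE 0.35, adjusted p 0.0855).

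Of the INK4 inhibitors, which bind CDK4 and CDK6, Cdkn2a and Cdkn2b were low in ESCs and higher in every later library. Cdkn2a, on chromosome 4 from 88920377 to 88940523 (mm9), encodes an INK4 protein and the ARF protein that stabilises p53, and 1 row cannot tell these transcripts apart. It was at 8.96, 10.3, 10.7 and 16.5 FPKM in ESCs of 3WT, 3.34Null-Rescue, 3.34Null and 2.6Null. At cXENp1 it was at 75, 27.8, 44.8 and 53.1 FPKM, at cXENp3 at 23.4, 112, 72.0 and 90.2 FPKM, and in XENB1 and XEN5 at 88.8 and 59.3 FPKM. The ESC libraries did not overlap with any other stage. Cdkn2a was higher by 1.97 at cXENp1 (SE 0.45, adjusted p 0.0121), by 2.51 in KO cXENp3 against KO ESCs (SE 0.63, adjusted p 0.00899) and by 2.58 in XEN lines (SE 0.30, adjusted p 0.000453).

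Cdkn2b, the neighbour of Cdkn2a on chromosome 4 from 88952198 to 88956941, followed it. Its level was 0.426 to 1.93 FPKM in ESCs and 16.4, 9.63, 18.4 and 20.3 FPKM at cXENp1. At cXENp3 it was 2.16 FPKM in 3WT, 30.2 in 3.34Null-Rescue, 20.2 in 3.34Null and 43.3 in 2.6Null. It was called higher at cXENp1 (2.95, SE 0.55, adjusted p 0.00556), in the KO lines at cXENp3 (3.72, SE 0.86, adjusted p 0.00611) and in the XEN lines (2.78, SE 0.43, adjusted p 0.00168). At cXENp3 the order of the lines differed from that of the XEN markers: 3.34Null-Rescue, with 13.5 FPKM of XEN markers and the highest sum of feeder markers, 1284 FPKM, had Cdkn2a and Cdkn2b above the level of the 3.34Null line. The part of feeder RNA in these cXENp3 values was not tested. Cdkn2c was at 0.17 to 2.11 FPKM in ESCs and at 0.51, 1.10, 6.62 and 4.18 FPKM at cXENp3 in 3WT, 3.34Null-Rescue, 3.34Null and 2.6Null. It was higher in KO than in Zfp281-present lines by 1.82 (SE 0.37, adjusted p 0.00436), without overlap, and than in KO ESCs by 1.24 (adjusted p 0.021). The KO lines were also the higher of the groups at the ESC stage. Cdkn2d, the remaining INK4 gene, was at 1.61 to 8.93 FPKM and was not called.

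The CIP/KIP inhibitors, which bind a wider set of CDKs, gave a less even picture. Cdkn1a, which encodes p21, the best known target of p53, on chromosome 17 from 29227931 to 29237667 (mm9), was at 73.6, 106, 100 and 15.9 FPKM in ESCs of 3WT, 3.34Null-Rescue, 3.34Null and 2.6Null. At cXENp3 it was at 55.8, 126, 203 and 477 FPKM, and the XEN lines had 204 (XENB1) and 147 FPKM (XEN5). The KO lines rose from ESC to cXENp3 by 2.92 (SE 0.76, adjusted p 0.0109), to which 2.6Null contributed a change of 4.83 and 3.34Null one of 1.01. Without 2.6Null the difference was 1.01 (adjusted p 0.25). The KO lines were above both Zfp281-present lines at cXENp3, and this difference of 1.88 (SE 0.76, adjusted p 0.0716) did not pass. Cdkn1b, which encodes p27, was at 25.8 to 40.1 FPKM in ESCs and at 20.6 to 21.9 at cXENp1, below all ESC libraries (-0.68, SE 0.19, adjusted p 0.0277).

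**Figure D3:**
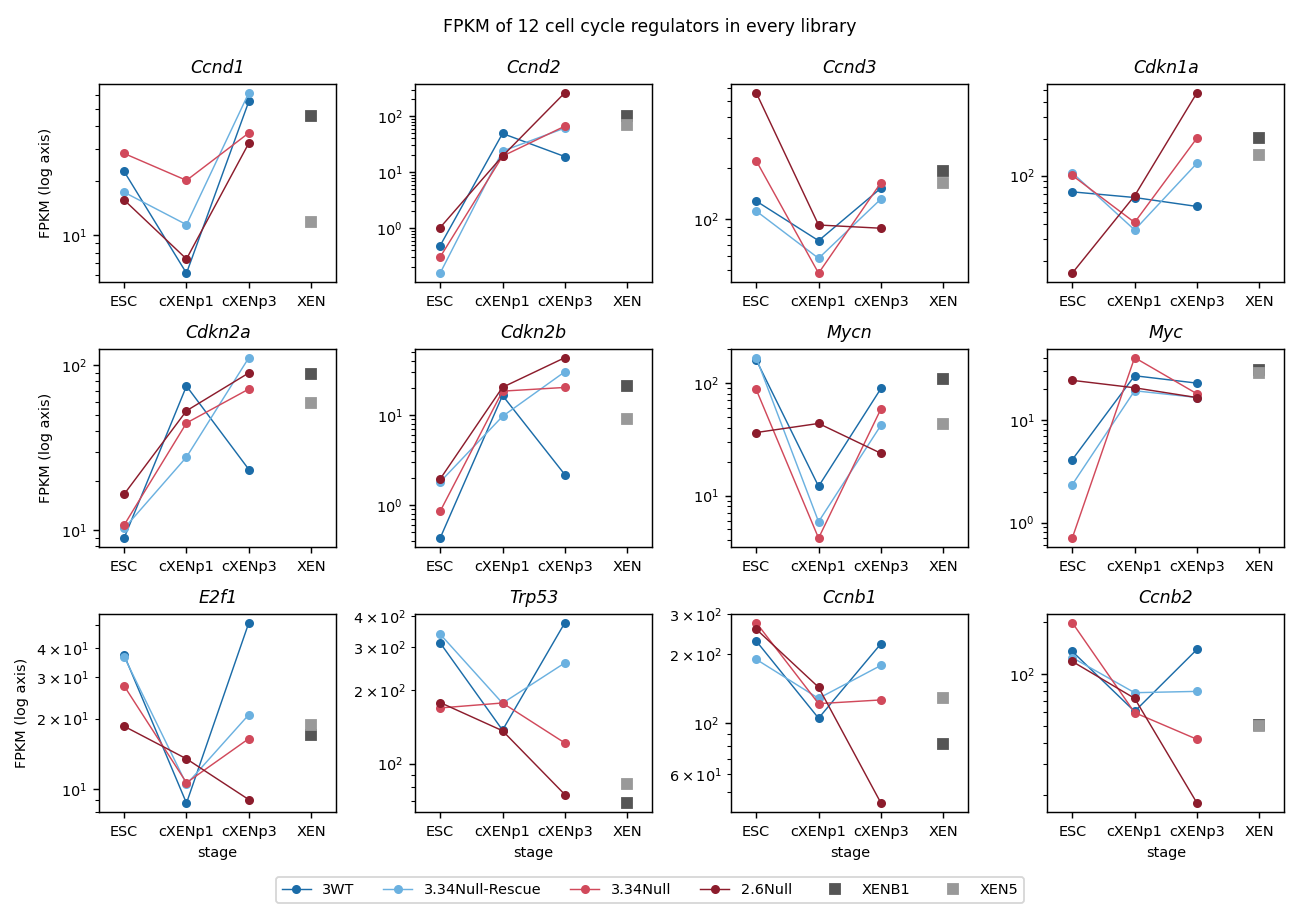
FPKM of 12 members (log axis) by stage, with 1 line of points per cell line and squares for XENB1 and XEN5. Ccnd2, Cdkn2a and Cdkn2b lie above every ESC library at each later stage, and Ccnb1 and Ccnb2 of the KO lines (reds) lie below the Zfp281-present lines (blues) at cXENp3.

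The pocket proteins restrain E2F factors. Rb1, the retinoblastoma gene, was at 4.50 to 14 FPKM and was not called. Rbl1, which encodes p107, was at 9.91 to 14.5 FPKM in ESCs and at 5.19 to 7.91 at cXENp1 (-0.64, SE 0.20, adjusted p 0.0412). It was at 5.23 and 6.20 FPKM in the XEN lines (-0.91, SE 0.25, adjusted p 0.0209), also below all ESC libraries. Rbl2, which encodes p130, the pocket protein of resting cells, was at 1.85 and 3.42 FPKM in the Zfp281-present lines and at 5.06 and 9.64 FPKM in 3.34Null and 2.6Null at cXENp3. The KO lines were higher by 1.18 (SE 0.37, adjusted p 0.0276), without overlap. From ESC to cXENp3 in the KO lines, Rbl1 was called lower (-1.02, adjusted p 0.0119) and Rbl2 higher (1.14, adjusted p 0.0277). The Rbl2 change was 0.44 in 3.34Null and 1.84 in 2.6Null, and 5 of 10 alternative fits lost its call.

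Among the E2F factors, the activators E2f1 and E2f2 fell at cXENp1 and E2f6 rose. E2f1 was at 37.3, 36.7, 27.6 and 18.6 FPKM in ESCs of 3WT, 3.34Null-Rescue, 3.34Null and 2.6Null and at 8.74, 10.5, 10.7 and 13.5 FPKM at cXENp1 (-1.35, SE 0.38, adjusted p 0.0268). The E2f1 call at cXENp1 was lost in 4 of 10 alternative fits, among them that with each library scaled to the same sum. At cXENp3 the E2f1 level was 51.2 and 20.8 FPKM in the Zfp281-present lines and 16.4 and 9.04 in the KO lines (-1.35, SE 0.40, adjusted p 0.0227). E2f2 was at 4.59 to 9.60 FPKM in ESCs and at 0.360 and 0.398 FPKM in the XEN lines (-2.36, SE 0.31, adjusted p 0.000821), and it was also called lower at cXENp1 (-1.5) and in the KO lines at cXENp3 (-1.5). The third activator, E2f3, was at 7.74 to 15.0 FPKM and was not called.

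E2f6, a repressor that acts without the pocket proteins, was at 11.2 to 12.9 FPKM in ESCs, 19.9 to 29.8 at cXENp1 and 36.5 and 39.8 in the XEN lines. These ranges did not overlap. It was higher by 1.06 at cXENp1 (SE 0.20, adjusted p 0.00615) and by 1.61 in the XEN lines (SE 0.20, adjusted p 0.000703). At cXENp3 it was at 12.4 FPKM in 3WT, 15.4 in 3.34Null-Rescue, 19.3 in 3.34Null and 21.2 in 2.6Null, and the KO lines were 0.69 higher than KO ESCs (adjusted p 0.0241) and 0.88 lower than the XEN lines (-0.88, SE 0.21, adjusted p 0.0388). E2f4, which works with the pocket proteins as a repressor, was at 93.0 to 145 FPKM in ESCs and at 58.8 and 63.7 in the XEN lines (-0.97, SE 0.22, adjusted p 0.00971). At cXENp1 E2f4 was at 53.9, 66.0, 69.6 and 79.9 FPKM in 3WT, 3.34Null-Rescue, 3.34Null and 2.6Null, below every ESC library (-0.85, SE 0.28, adjusted p 0.047), and 7 of 10 alternative fits lost that call. E2f8, an atypical repressor, was at 25.4 and 16.7 FPKM in the Zfp281-present lines and 12.3 and 3.73 in the KO lines at cXENp3 (-1.45, SE 0.44, adjusted p 0.0248). It was also called lower in the XEN lines than in ESCs (-0.95, adjusted p 0.0413), which 6 of 11 alternative fits lost. E2f7, at 2.87 to 9.42 FPKM, was not called.

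E2f5, another repressor of the pocket protein class, was at 26.9 FPKM in 3WT, 29.1 in 3.34Null-Rescue, 37.6 in 3.34Null and 19.8 in 2.6Null ESCs and at 20.5, 15.1, 17.4 and 13.1 FPKM at cXENp3. It fell in the KO lines by 0.82 (SE 0.30, adjusted p 0.044), without overlap between their stages, and 6 of 10 alternative fits lost this call (adjusted p up to 0.292). The changes in 3WT and 3.34Null-Rescue were -0.37 and -0.90, and that step was not called.

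The MYC factors, which drive growth and cell cycle genes, shifted at cXENp1. Mycn was at 161 FPKM in 3WT, 168 in 3.34Null-Rescue, 87.6 in 3.34Null and 36.3 in 2.6Null ESCs and at 12.1, 5.85, 4.19 and 43.7 FPKM at cXENp1. Myc was at 4.08, 2.33, 0.704 and 24.2 FPKM in the same ESC libraries and at 26.8, 19.1, 40.2 and 20.5 FPKM at cXENp1. Mycn was lower by 3.02 (log2 difference -3.02, SE 0.71, adjusted p 0.0137) and Myc higher by 2.35 (SE 0.62, adjusted p 0.022), but in 2.6Null neither moved that way. In that line Mycn changed by 0.26 and Myc by -0.23, while all other members called at cXENp1 had the sign of the call in all 4 lines. With the prefix as a term, which rests on 2.6Null, Myc was at -0.15 (adjusted p 0.87) and Mycn at -1.18 without a call. Mycl1 was at 3.23 to 10.9 FPKM in ESCs and at 18.4, 20.8, 10.9 and 6.68 FPKM at cXENp1 (0.90, SE 0.23, adjusted p 0.0193), and rose in each line.

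Later stages held both Myc and Mycn. At cXENp3 Mycn was at 89.4, 42.2, 58.9 and 23.7 FPKM and Myc at 22.7, 16.5, 17.9 and 16.4 FPKM in 3WT, 3.34Null-Rescue, 3.34Null and 2.6Null, and neither was called between KO and Zfp281-present lines. The Mycn over Myc ratio was 39.4, 72.0 and 124 in the ESC libraries of 3WT, 3.34Null-Rescue and 3.34Null and 1.5 in that of 2.6Null. It was 0.104 to 2.14 at cXENp1, 1.44 to 3.94 at cXENp3 and 3.54 and 1.5 in XENB1 and XEN5. Mycl1 was at 11.5 and 5.51 FPKM in the Zfp281-present lines at cXENp3 and at 3.11 and 2.94 in the KO lines (-1.17, SE 0.38, adjusted p 0.0325), and at 1.73 and 2.01 in the XEN lines, lower than in ESCs (-1.39, adjusted p 0.027), a call that 7 of 11 alternative fits lost.

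Trp53, which encodes the p53 protein, was at 312 FPKM in 3WT, 339 in 3.34Null-Rescue, 169 in 3.34Null and 178 in 2.6Null ESCs, and at 377, 258, 121 and 74.6 FPKM at cXENp3. The KO lines at cXENp3 were lower than the Zfp281-present lines (-1.70, SE 0.28, adjusted p 0.00148) and lower than KO ESCs (-0.86, SE 0.28, adjusted p 0.0284). The latter call was lost in 5 of 10 alternative fits. The XEN lines were at 68.9 and 82.7 FPKM (-1.64, SE 0.33, adjusted p 0.00569). The groups did not overlap in these comparisons. In ESCs the KO lines were also the lower ones, though no call was made there. Mdm2, the ubiquitin ligase that p53 induces and that degrades p53, was at 36.8 and 54.0 FPKM in the Zfp281-present lines and at 72.1 and 129 in the KO lines at cXENp3, without overlap, and this difference of 1.10 did not pass (SE 0.41, adjusted p 0.056).

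At cXENp3, the 15 members called between KO and Zfp281-present lines did not overlap between the groups. Of all 44 tested members, 22 (50%) did not overlap there, beside 72.9% of all 13191 tested genes. By role, 3 cyclins were higher (Ccnd2, Ccne2 and Ccng1) and 3 lower (Ccne1, Ccnb1 and Ccnb2) of 10 tested. Of 6 inhibitors 1 was higher (Cdkn2c), and of 8 E2F factors 2 were lower (E2f1 and E2f8). Of 8 mitotic kinases and phosphatases, with Mki67 in this group, 2 were lower (Wee1 and Plk1). Here and below, counts from fits that leave out a line stand without the share of all genes called. They describe the fits and are not read as results about the members. The count of 15 called members rested on the lines used. It was 0 without 3WT, 9 without 3.34Null-Rescue, 5 without 2.6Null and 27 without 3.34Null, where each such fit leaves 1 library in an arm and assumes that it varies like the other groups. Without 2.6Null the called members were Trp53, Ccne2, Cdkn2c, Ccne1 and Ccnb2. The 2 KO lines differed from each other at cXENp3: 2.6Null was lower than 3.34Null by 1.30 in Aurka and 1.34 in Aurkb on the log2 scale (differences -1.30 and -1.34), and Cdkn1a was at 477 against 203 FPKM.

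**Figure D4:**
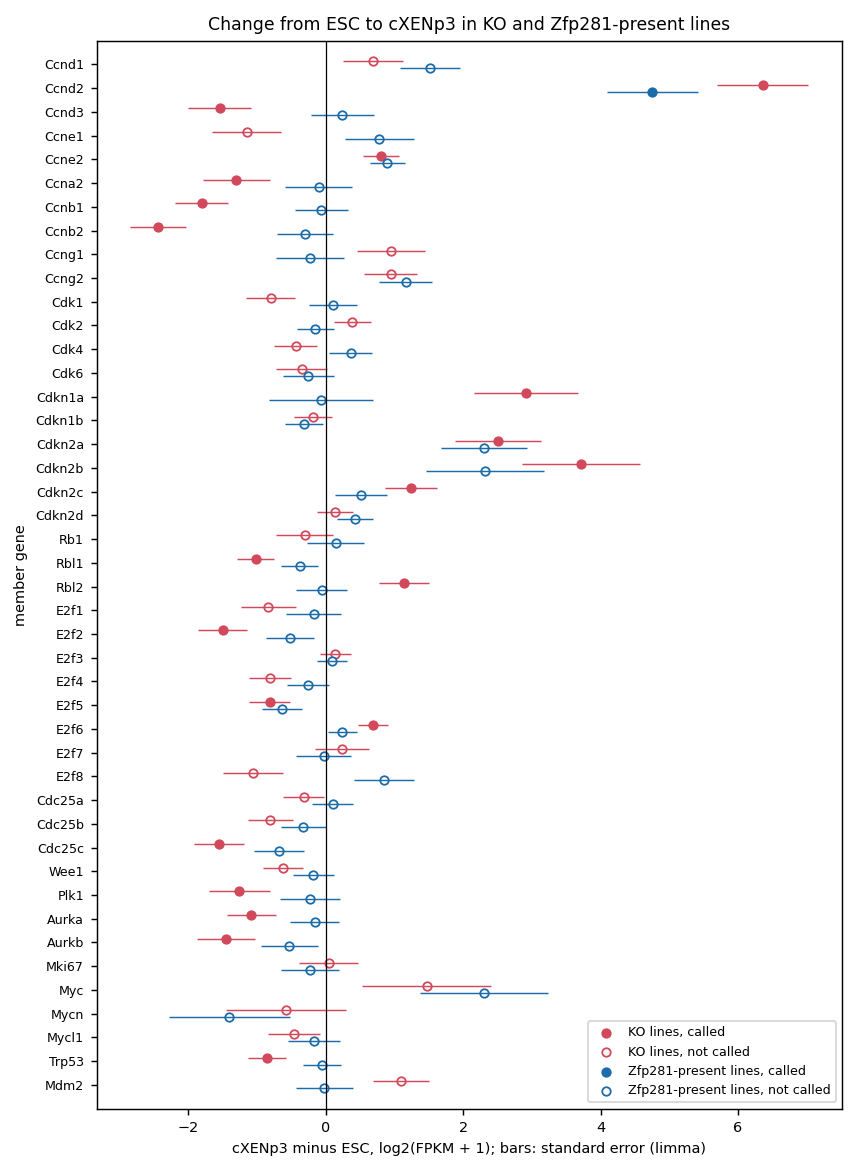
Change from ESC to cXENp3 of the 44 tested members on the log2(FPKM + 1) scale in KO lines (red) and Zfp281-present lines (blue), with limma standard errors as bars and filled points for called changes. In the KO lines 20 members are called and in the Zfp281-present lines 1, Ccnd2, and the difference between the 2 changes is called for Ccnb1 and Ccnb2.

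Whether the change from ESC to cXENp3 itself differed by Zfp281 status was tested as an interaction. It was called for 2 members, both lower in the KO lines, where 22.6% of all genes were called (13.7% higher and 8.85% lower). These were Ccnb1 (-1.74, SE 0.54, adjusted p 0.0455) and Ccnb2 (-2.14, SE 0.57, adjusted p 0.0272). The next members did not pass: E2f8 was at -1.90 (SE 0.62, adjusted p 0.052), Ccnd3 at -1.79 (SE 0.64, adjusted p 0.0698) and Cdkn1a at 2.98 (SE 1.07, adjusted p 0.0707). No member was called without 3WT or without 3.34Null-Rescue, and 14 were called without 3.34Null. Against the XEN lines, the KO lines at cXENp3 differed in 2 members, Cdk6 and E2f6 as given above, where 4.12% of all genes were called (2.64% higher and 1.48% lower). Neither call was kept when any 1 of the 6 lines was left out.

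Single calls also changed with the fit. Of the 72 calls made on members over all comparisons, 11 were kept in every alternative fit and 18 were lost in most. The calls kept were Ccnb1, Ccnb2, Ccnd2 and Cdc25c in KO cXENp3 against KO ESCs, and Ccnb2, Ccnd2, Cdk6, Cdkn2a, Cdkn2b, E2f2 and E2f6 in XEN against ESC. Beside those named above, the calls lost in most alternatives were Cdk6, Cdkn1b and Rbl1 at cXENp1 against ESC (7 of 10 each, with adjusted p up to 0.449, 0.539 and 0.573), E2f6 in KO cXENp3 against KO ESCs (6 of 10), and Cdk6 and E2f6 in KO cXENp3 against XEN (8 and 7 of 11).

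The counts of the other steps also rested on single lines. At cXENp1 against ESC, 2 members were called without 3.34Null, 3 without 3.34Null-Rescue, 8 without 3WT and 20 without 2.6Null, and 1 (Ccnd3, lower) with the prefix as a term. In KO cXENp3 against KO ESCs, 9 were called without 2.6Null and 10 without 3WT or without 3.34Null-Rescue. In XEN against ESC, 9 were called without XENB1 or without XEN5. In the Zfp281-present lines at cXENp3 against ESC, 2 were called without 3WT, 4 without 2.6Null, 3 without 3.34Null and 0 without 3.34Null-Rescue. At the ESC stage, KO against Zfp281-present lines called 6 members without 3.34Null. The FPKM sums of the libraries ranged from 424406 to 718138, and scaling each library to the same sum moved the median of all genes by 0.44 at cXENp1 against ESC, 0.19 in XEN against ESC and 0.28 in the KO lines at cXENp3. Relative to these sums the called members were 11 higher and 2 lower at cXENp1, 10 higher and 8 lower in XEN against ESC, and 11 higher and 5 lower in the KO lines at cXENp3 against ESC. With quantile normalization the last split was 4 higher and 15 lower. These splits stand without the counts of all genes called in the same fits, and are not read as results about the members. At cXENp1 against ESC, scaling to the same sum lost the lower calls of Ccnd3, Cdc25c, E2f1, Rbl1, Cdk6, Cdkn1b, Ccnd1 and E2f4.

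Genes of the cell cycle outside the members were read from lists of replication, mitosis, p53 target and other CDK genes. The alternative fits were summarised for the members only. How far the results of these lists rest on single lines, on the scaling or on the prefix was not tested. Of 27 origin licensing and replication genes, 21 (77.8%) were lower and 0 higher in the KO lines at cXENp3 against ESC, where 47.8% of all genes were called and 22.3% were lower. Their median was -1.40 beside -0.00 over all genes. At cXENp3, 15 of the 27 (55.6%) were lower and 0 higher in the KO than in the Zfp281-present lines (median -0.99, all genes 0.01), against 41.9% of all genes called and 19% lower. Mcm6, a subunit of the replicative helicase, was at 295 and 172 FPKM in 3WT and 3.34Null-Rescue and at 86.1 and 30.2 FPKM in 3.34Null and 2.6Null there (-2.12, SE 0.49, adjusted p 0.00775). Of 25 genes of mitosis and the spindle checkpoint, 19 (76%) were lower in the KO lines at cXENp3 against ESC (median -1.28) and 14 (56%) in KO against Zfp281-present lines (median -1.08), with 0 higher in both. Bub1b, a checkpoint kinase-like protein, was at 94.9 and 63.6 FPKM in the Zfp281-present lines and at 26.9 and 9.13 in the KO lines (-2.23, SE 0.42, adjusted p 0.00299). At cXENp1 against ESC, 3 replication genes (11.1%) and 5 mitosis genes (20%) were called lower and 0 higher, where 28.5% of all genes were called and 13.8% were lower. The list medians were -0.75 and -0.66 (all genes 0.00). Called or not, 24 of the 27 and 22 of the 25 had a negative difference, beside 6587 of 13191 genes. The fit of this step also held the cXENp3 libraries, where many genes of both lists differed between KO and Zfp281-present lines. Such differences add to its SE, so the low counts of calls do not show that the lists were unchanged at cXENp1. Mybl2, a factor of the complex that switches on mitotic genes, was at 240.5 to 271 FPKM in ESCs and 15.0 to 43.5 at cXENp1 (-3.52, SE 0.58, adjusted p 0.00303).

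In XEN against ESC, 11 of the 27 replication genes were lower and 1 higher, and 8 of the 25 mitosis genes were lower and 0 higher. These calls made up 44.4% and 32% of the lists, near or below the 41.9% of all genes called in either direction. Nearly all of them were lower, while 19.7% of all genes were called lower. The list medians were -0.66 and -0.60, beside -0.02 over all genes. In the interaction, 7 replication genes (25.9%) and 4 mitosis genes (16%) were lower and 0 higher, where 22.6% of all genes were called and 8.85% were lower. KO against Zfp281-present lines called 0 genes of either list by limma at the ESC stage, with 3 replication and 1 mitosis genes at an unadjusted p under 0.05. At cXENp1 the lists also gave 0 calls by limma, with 1 replication and 0 mitosis genes at an unadjusted p under 0.05. The step from ESC to cXENp3 in the Zfp281-present lines gave 0 calls in either list by limma and 0 at an unadjusted p under 0.05.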

How the data were processed

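PolyA RNA was sequenced as paired reads of 150 bases on a HiSeq4000, per the labels' protocols. The authors deposited 1 table of 23174 rows with 14 value columns, 1 per library. The processing notes of the submitters name STAR 2.5.3, Cufflinks 2.1.1 and mm9, and the values were taken as FPKM that the authors deposited, since they are not whole numbers and never negative, and the table names no unit. Depth is unknown, so no interval or detection limit is given. Coordinates of the table are given in mm9, counted from 1. Promoter sequences and their coordinates come from RefSeq (GRCm38.p6), which matched 34 of 45 members by symbol.

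Values were analysed as log2(FPKM + 1), computed from the deposited FPKM. A row was tested where at least 2 fitted libraries reached 1 FPKM. Models were fitted over all tested rows with limma 3.58.1 in R 4.3.3 (lmFit, eBayes with trend). Genes with a Benjamini-Hochberg adjusted p under 0.05 were called. XEN against ESC used 6 libraries and 12372 rows. For cXENp1 against ESC the 12 libraries of the 4 lines were fitted with the line as a blocking factor, as every line was sampled once at each stage. KO against Zfp281-present lines, cXENp3 against ESC within each status and their interaction used 6 groups of 2 libraries and 13191 rows. KO cXENp3 against XEN used all 14 libraries in 7 groups and 13386 rows. Labels do not say that the lines were cultured more than once, so p-values rest on the spread between these lines. For cXENp1 against ESC this is the spread left after the line block, and it takes in the cXENp3 libraries. That fit had no term for Zfp281 status by stage. A difference between KO and Zfp281-present lines at cXENp3 therefore adds to its SE, and a gene without a call at cXENp1 is not shown to be unchanged.

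The members, their roles and the other gene lists were chosen with earlier results of these data known. Every member is accounted for. For members called at least once, values by library or ranges are given for some stages and not always for all. Of each other list, at most the 3 genes with the largest absolute change among those called in a comparison were named. Alternatives were a pseudocount of 0.1, no filter on low values, quantile normalization, the same sum for every library, a term for the prefix (JH or XH) of the description, a line block or none, and leaving out each line. Each fit was checked on simulated data with genes of known change. Those data held no low values and no effect of line or prefix, so the check does not cover these. No 2 libraries held identical values. Python 3.11.15, pandas 2.3.3 and matplotlib 3.10.9 were used for summaries and figures.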

Additional observations from a re-analysis of the deposited data

Results flagged for a closer look

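For a pair of members the change from ESC to cXENp3 differed between KO and Zfp281-present lines by the test of the difference itself (limma, 6 groups of 2 libraries). For Ccnb1, cyclin B1, the change in the KO lines minus that in the Zfp281-present lines was -1.74 on the log2(FPKM + 1) scale (adjusted p 0.0455). In 3.34Null it went from 275 to 127 FPKM and in 2.6Null from 258 to 44.9, while 3WT went from 229 to 223 and 3.34Null-Rescue from 190 to 179. Ccnb2, cyclin B2, had an interaction of -2.14 (adjusted p 0.0272). It went from 198 to 41.8 FPKM in 3.34Null and from 118 to 17.9 in 2.6Null, and from 135 to 139 in 3WT and 124 to 79.2 in 3.34Null-Rescue. Both genes fell in 2 of 2 KO lines. On the log2 scale, Ccnb1 changed by -0.04 in 3WT and -0.09 in 3.34Null-Rescue, and Ccnb2 by 0.04 and -0.64. Leaving out 3WT or 3.34Null-Rescue ended both calls, with adjusted p of 0.281 and 0.226 for Ccnb1 and 0.249 and 0.13 for Ccnb2, and leaving out 2.6Null ended that of Ccnb1 (adjusted p 0.0881).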

How the results depend on the processing

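Counts of called members stayed within 1.5 times of the reported ones under a pseudocount of 0.1, no filter, quantile normalization, the same library sum and the prefix as a term, apart from the following. With the prefix as a term, 1 member was called at cXENp1 against ESC, 0 in the Zfp281-present lines at cXENp3 against ESC and 1 in the interaction, and Myc at cXENp1 turned to -0.15. A pseudocount of 0.1 gave 1 call between KO and Zfp281-present ESCs. Without the filter on low values, 9 members were called between KO and Zfp281-present lines at cXENp3, 0 in the interaction and 1 in KO cXENp3 against XEN, where quantile normalization and the same library sum also gave 1 each. The causes were not tested. Leaving out each line gave 9 to 21 calls in XEN against ESC, 2 to 20 at cXENp1 against ESC and 0 to 6 between KO and Zfp281-present ESCs. At cXENp1 it gave 0 to 0 between those lines, and at cXENp3 0 to 27. It gave 9 to 21 in KO cXENp3 against KO ESCs, 0 to 4 in the Zfp281-present lines, 0 to 14 in the interaction and 0 to 8 in KO cXENp3 against XEN. Each line gave 1 library per stage, so lines pair the stages: with line as a replicate block the KO lines at cXENp3 against ESC gave 21 calls, the Zfp281-present lines 1 and the interaction 2, and without the block cXENp1 against ESC gave 12. Sequencing depth is unknown, so the precision of low values such as Ccnd2 in ESCs cannot be stated.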

Other observations

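Known target genes of p53 moved in both directions at cXENp3. Of 21 tested target genes outside the members, 6 were higher and 3 lower (42.9% in all) in KO than in Zfp281-present lines at cXENp3, near the 41.9% of all genes called (22.9% higher and 19% lower). Tnfrsf10b, a death receptor, was at 8.0 FPKM in 3WT, 13.6 in 3.34Null-Rescue, 47.2 in 3.34Null and 76.1 in 2.6Null, and was higher in the KO lines by 2.41 (SE 0.33, limma adjusted p 0.000708). Plk2, a kinase induced by stress, was higher by 2.24 (SE 0.68, adjusted p 0.0248) and Btg2, an antiproliferative factor, by 2.03 (SE 0.50, adjusted p 0.01). The Mdm2 over Trp53 ratio of FPKM was 0.0975 in 3WT, 0.209 in 3.34Null-Rescue, 0.594 in 3.34Null and 1.73 in 2.6Null at cXENp3, and 1.31 and 0.761 in XENB1 and XEN5. In ESCs it was 0.108, 0.180, 0.275 and 0.241 in the same order of lines, so the KO lines were already the higher ones there. The Cdkn1a over Trp53 ratio was 0.148, 0.489, 1.67 and 6.40 at cXENp3 in the same order of lines and 2.97 and 1.78 in XENB1 and XEN5. The Cdkn1a over Trp53 ratio in ESCs was 0.236 in 3WT, 0.312 in 3.34Null-Rescue, 0.595 in 3.34Null and 0.0893 in 2.6Null. Both ratios were higher in each KO line than in each Zfp281-present line at cXENp3, and no test was run on them.

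Among 31 other CDKs, cyclins and CDK regulators, 4 were higher and 7 lower (35.5% in all) in KO than in Zfp281-present lines at cXENp3, below the 41.9% of all genes called there. Cdkn1c, the imprinted CIP/KIP inhibitor p57, was at 30.1 FPKM in 3WT and 71.2 in 3.34Null-Rescue against 7.68 in 3.34Null and 3.04 in 2.6Null, lower in the KO lines by 3.0 (log2 difference -3.0, SE 0.80, adjusted p 0.0142). At cXENp1 it had been at 56.2, 84.7 and 64.2 FPKM in 3WT, 3.34Null-Rescue and 3.34Null and at 8.34 in 2.6Null, beside 3.48 to 7.21 in ESCs. Fbxo5, an inhibitor of the anaphase-promoting complex, was lower by 2.21 (-2.21, SE 0.38, adjusted p 0.00198), and Cdk14, a CDK linked to Wnt signalling, was higher by 2.07 (SE 0.47, adjusted p 0.00687).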
